A study of Mus musculus with 12 samples.

Results

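TRBV31, known in the older nomenclature as Vb14, is the V gene of the mouse T cell receptor beta (TRB) locus that lies beyond the D, J and constant segments. Its records were the contigs of called cells with chain TRB and V gene TRBV31, with productive and nonproductive contigs kept apart. A contig is an assembled receptor transcript of 1 cell. TRBV31 was 1 of 22 TRBV genes in the table and gave 964 contigs, 816 productive and 148 nonproductive. Taking each join of a J gene with a given CDR3 nucleotide string 1 time per library, these were 803 of 10174 distinct productive rearrangements. Another 81 of 1228 distinct nonproductive rearrangements used TRBV31. It was the leading TRB chain of 753 of 10295 cells with a productive TRB contig.

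The study examined CD45+ immune cells of mammary tumours in BALB/c mice. Receptor sequences came from a droplet V(D)J enrichment of mouse T cell transcripts. The labels name a 3-week course of cyclophosphamide, an alkylating drug, and pexidartinib, which blocks the receptor of the macrophage growth factor CSF1, and they mark each sample as treated or untreated. Of the 6 libraries used, CTX, CTX2 and Combined were labelled treated, and CSF1R was tied to a treated sample by the number in a title. PBS1 was tied to an untreated sample. The labels of PBS2 conflict: its receptor record says treated, and the matching expression record says untreated. The library names are those of the table, and the labels do not say which drugs each name stands for, nor whether libraries came from separate mice or pools.

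The libraries were unequal in depth. Called cells numbered 245 to 7629 per library and receptor UMIs, each a count of 1 original transcript molecule, 6807 to 121305. Combined held 660 of the 803 productive TRBV31 rearrangements and PBS1 held 5. Across libraries, 50 barcodes were called in 2 or more, 0 of them with the same TRB chain, and 6 TRBV31 cells had such a barcode. Immunoglobulin, gamma or delta chains gave 12 contigs in all, 1 of them in a TRBV31 cell.

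A beta chain is assembled in 2 steps, a D segment joining a J segment before a V segment joins the DJ product. Most V genes lie upstream and join with loss of the DNA between, whereas TRBV31 lies downstream in the opposite orientation and joins by inversion, which keeps the intervening DNA in the chromosome. The mouse locus has 2 D segments, each ahead of its own J cluster: TRBD1 before the TRBJ1 genes, and TRBD2 before the TRBJ2 genes. The CDR3 is the loop that spans the junction and contacts the peptide, running from a conserved cysteine of the V gene to a conserved phenylalanine of the J gene. A T cell can carry a nonproductive TRB rearrangement on its second chromosome.

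In RefSeq's annotation of GRCm38.p6, which is mm10, Trbv31 lies on chromosome 6 at chr6:41557693-41558371. All 22 TRBV genes of the table had a position there. Trbd2, at chr6:41542163-41542176, is 15517 bases away, and Trbd1, at chr6:41533201-41533212, is 24481 bases away. The nearest J gene by position, Trbj2-7, is 13837 bases from Trbv31, and Trbj1-1 is 23782 bases away. On the far side, Trbv30 is 275703 bases away, Trbv29 is 285812 and Trbv1, the farthest, is 665808.

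The sequences below show what a TRBV31 junction looks like, and all are CDR3 letters assembled from transcripts of this locus on chromosome 6, read 5′ to 3′. The first line is the consensus of the V end. Each letter was carried by at least 60% of the productive rearrangements that matched all letters before it. No germline TRBV31 sequence was used, so the last of these 14 letters may not all be germline. In the other lines, capitals mark the letters that match this consensus without a break from its start. They are the CDR3s of the leading TRBV31 clone in each library.
V end consensus: TGTGCCTGGAGTCT
CTX, TRBJ2-2: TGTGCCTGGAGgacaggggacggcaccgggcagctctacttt
CTX2, TRBJ1-1: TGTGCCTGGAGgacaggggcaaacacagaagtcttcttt
Combined, TRBJ1-1: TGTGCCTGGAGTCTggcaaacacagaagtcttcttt
CSF1R, TRBJ2-7: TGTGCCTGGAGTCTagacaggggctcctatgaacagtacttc
PBS2, TRBJ2-5: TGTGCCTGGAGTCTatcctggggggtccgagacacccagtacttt
PBS1, TRBJ1-2: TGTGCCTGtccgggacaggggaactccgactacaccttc

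The match to the V end consensus ended at different letters in these receptors, which does not measure trimming alone. In the leading clones of Combined, CSF1R and PBS2 all 14 letters were present, against 11 in CTX and CTX2 and 8 in PBS1. Over all 803 productive rearrangements, 289 (36.0%) kept the 14 letters, 63.3% kept 12 or more and 96.5% kept 9 or more. The first 9 letters encode cysteine, alanine and tryptophan, and tryptophan stood at CDR3 position 3 in 775 of 803 (96.5%). Other TRBV genes had tryptophan there in 0.0213%. Serine followed at position 4 in 601 (74.8%), written with the consensus codon AGT in 508. Leucine at position 5 was read in 315 (39.2%) of TRBV31 rearrangements and in 7.54% of those of other TRBV genes. From position 6 on the TRBV31 letters were less distinct: glycine, which D segments often encode, stood there in 34.6% of TRBV31 and 26.3% of other TRBV rearrangements.

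TRBV31 made up 5.06% of distinct productive TRB rearrangements in CTX (20 of 395) and 6.03% in CTX2 (31 of 514). In Combined it made up 8.42% (660 of 7843). It made up 7.28% in CSF1R (64 of 879), 5.72% in PBS2 (23 of 402) and 3.55% in PBS1 (5 of 141). Combined was highest and PBS1 lowest, and the exact 95% interval of PBS1, 1.16% to 8.08%, took in the values of each other library but Combined, whose own interval was 7.81% to 9.05%. Such intervals cover counting error only. Counted by cell, the share was 3.76% in CTX, 3.41% in CTX2, 8.43% in Combined, 7.16% in CSF1R, 5.32% in PBS2 and 2.60% in PBS1.

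TRBV31 ranked seventh of the 22 genes by mean share, 6.01% ± 1.70 (SD, n = 6 libraries). The neighbours in that order were TRBV13-3 at 8.14% ± 1.65 and TRBV1 at 6.95% ± 0.969 above it. Below it came TRBV20 at 5.84% ± 1.61 and TRBV4 at 5.61% ± 1.85. TRBV1, TRBV20 and TRBV4 lay within 1 SD of TRBV31, and TRBV13-3 did not. TRBV29 averaged 4.77% ± 0.429 and TRBV30 0.624% ± 0.463.

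The 4 treated libraries averaged 6.70% ± 1.46 TRBV31 among productive rearrangements, against 3.55% in PBS1, the single untreated library. The difference of 3.15 percentage points gave p = 0.2 in a two-sided exact permutation test, the smallest p that 4 libraries against 1 allow. All 4 treated libraries were above PBS1, which rested on 5 rearrangements. Placing PBS2 among the untreated libraries gave 2.06 points, and placing it among the treated gave 2.96. Among the 4 libraries whose sample titles do not begin with JR, CTX and CSF1R minus PBS1, the difference was 2.63 points (exact permutation p = 0.666667). The JR libraries, Combined and CTX2, were both treated, so title prefix and treatment cannot be fully told apart.

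**Figure D1:**
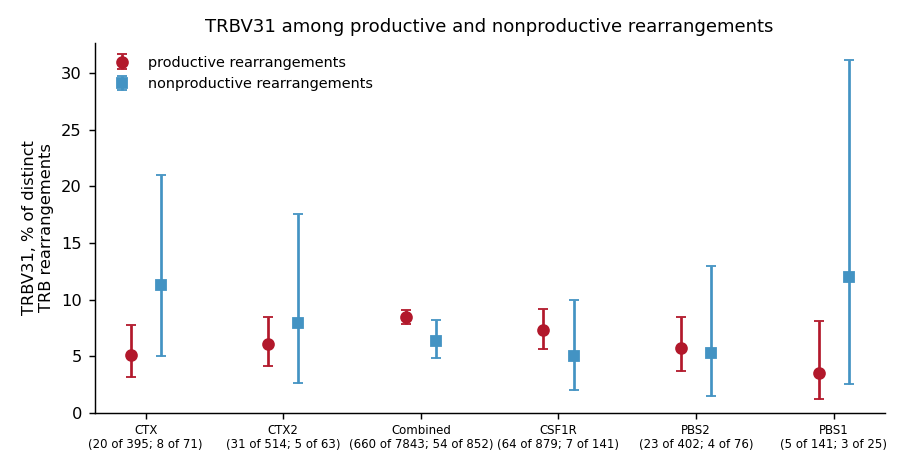
TRBV31 as a percentage of distinct TRB rearrangements (y axis) in each library (x axis, with TRBV31 counts of all), for productive (circles) and nonproductive (squares) rearrangements, with exact 95% binomial intervals. Combined has the narrowest productive interval, 7.81% to 9.05%, and the nonproductive point lies above the productive one in CTX, CTX2 and PBS1 and below it in the other 3 libraries.

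TRBV31 joined TRBJ1 genes about as often as other TRBV genes did. TRBJ1 partners made up 50.0% of TRBV31 rearrangements in CTX, 29.0% in CTX2, 39.4% in Combined, 39.1% in CSF1R, 39.1% in PBS2 and 40.0% in PBS1. For other TRBV genes the shares were 33.3% in CTX, 37.9% in CTX2, 39.1% in Combined, 38.9% in CSF1R, 36.4% in PBS2 and 42.6% in PBS1. In Combined the shares of TRBV31 and other TRBV genes differed by less than 1 point. TRBV31 was above the other genes in 4 of 6 libraries and below them in CTX2 and PBS1. Of the 15 TRBV genes with 3 or more rearrangements in each library, 13.3% were above all others in 6 of 6 libraries. TRBV16 and TRBV29 were above all others in 5 of 6, and TRBV19 in 4 of 6.

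The mean log2 odds ratio of TRBJ1 over TRBJ2, TRBV31 over other TRBV, was 0.11 ± 0.50 (SD, n = 6). A two-sided exact sign-flip permutation test gave p = 0.65625, with a smallest possible p of 0.03125, and the adjusted p was 0.757 (Benjamini-Hochberg over 15 genes and 7 measures). Without CTX the value was -0.0724, and within the 2 libraries whose titles begin with JR (Combined and CTX2) -0.26, against 0.29 in the other 4. Pooled over libraries, 315 of 803 TRBV31 joins (39.2%, exact 95% interval 35.8% to 42.7%) and 3628 of 9371 other joins (38.7%, 37.7% to 39.7%) used TRBJ1. Among tested genes TRBV31 ranked sixth for mean TRBJ1 share, at 39.4% ± 6.64. TRBV29, one of the nearest on the upstream side, had 44.1% ± 12.4 and TRBV1, the farthest, 35.0% ± 10.2, so these spreads overlap that of TRBV31.

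Single J genes are best read in Combined, where 660 TRBV31 and 7183 other rearrangements were counted. In the TRBJ1 cluster, TRBJ1-4 made up 10.2% of TRBV31 and 9.37% of other joins, and TRBJ1-1 made up 9.39% of TRBV31 and 10.6% of other joins. TRBJ1-2 stood at 6.67% of TRBV31 and 5.79% of other joins, and TRBJ1-3 at 6.36% and 6.52% in the same order. TRBJ1-6, at 3.48% of TRBV31 and 3.79% of other joins, and TRBJ1-5, at 3.33% and 3.06% in that order, were rare with TRBV31 and with the other genes.

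In the TRBJ2 cluster, TRBJ2-7 was the most used partner of TRBV31 (13.8%, against 15.6% of other joins). TRBJ2-5 followed with 12.1% of TRBV31 and 11.9% of other joins. TRBJ2-3 showed the widest gap, 11.8% of TRBV31 against 8.84% of other joins, and was higher with TRBV31 in 4 of 6 libraries. TRBJ2-1 (9.85% of TRBV31, 9.84% of other joins), TRBJ2-4 (7.42% of TRBV31, 8.48% of other joins) and TRBJ2-2 (5.61% of TRBV31, 6.33% of other joins) completed the cluster. No J gene was favoured by TRBV31 in 6 of 6 libraries.

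Averaged equally over libraries, the J profile was more uneven, and 5 of the libraries had 64 or fewer TRBV31 rearrangements. TRBJ2-5 averaged 20.0% ± 11.3 with TRBV31 and 11.8% ± 1.46 with other genes, and TRBJ2-7 averaged 9.31% ± 7.42 with TRBV31 and 16.0% ± 1.51 with other genes. Those SDs of TRBV31 exceed the differences. TRBJ1-2 averaged 10.4% ± 5.76 with TRBV31 and 4.46% ± 1.13 with other genes, and was higher with TRBV31 in 5 of 6 libraries. TRBJ1-5 averaged 0.816% ± 1.38 with TRBV31 and 3.96% ± 1.04 with other genes, and was higher with TRBV31 in 1 of 6. These 2 differences exceed the SD of TRBV31, and none of the J gene differences was tested. In Combined TRBJ1-2 and TRBJ1-5 differed by less than 1 point, and TRBJ1-5 was the higher with TRBV31 (3.33% against 3.06%). TRBV16, TRBV13-2 and TRBV19 had the mean profiles most like that of TRBV31, at total variation distances of 15.8%, 17.4% and 18.1% over 6 libraries. TRBV16 had 71 productive rearrangements in all, and TRBV31 had 5 in PBS1, so this order rests in part on small counts. A distance of 0 would mean the same use of each J gene.

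**Figure D2:**
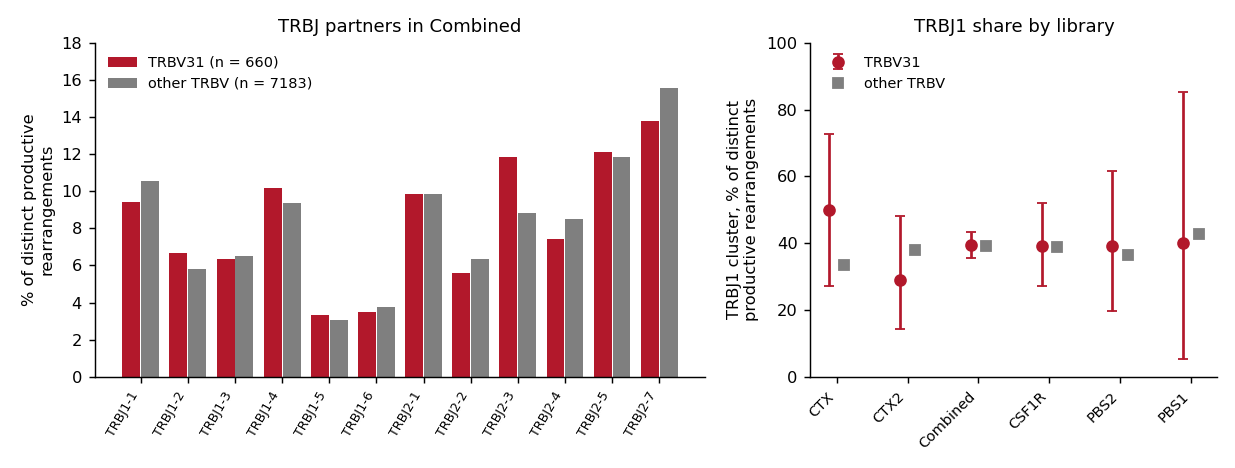
Left, percentage of distinct productive rearrangements with each TRBJ gene in Combined for TRBV31 (n = 660) and other TRBV genes (n = 7183); right, TRBJ1 share by library with exact 95% binomial intervals for TRBV31. The TRBV31 and other points nearly coincide in Combined (39.4% and 39.1%) and CSF1R (39.1% and 38.9%), and the TRBV31 intervals of the small libraries are wide.

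The D segment called in the junction was similar for TRBJ1 joins and less so for TRBJ2 joins. With TRBJ1, TRBD1 was called in 202 of 315 TRBV31 rearrangements (64.1%) and in 64.5% of those of other genes. TRBD2, which lies after the TRBJ1 genes in the locus, was called in 6.35% of TRBV31 and 5.54% of other TRBJ1 joins. With TRBJ2, TRBD2 was called in 268 of 488 TRBV31 rearrangements (54.9%, exact 95% interval 50.4% to 59.4%) and in 42.6% of those of other genes (41.3% to 43.9%). TRBD1 was called in 28.1% of TRBV31 and 36.1% of other TRBJ2 joins.

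Among TRBJ2 joins with any D called, TRBD2 had 62.5% of TRBV31 joins and 49.7% of other joins in CTX. It had 61.1% of TRBV31 and 52.8% of other joins in CTX2, and 66.2% of TRBV31 and 54.1% of other joins in Combined. CSF1R gave 68.6% with TRBV31 and 56.1% with others, and PBS2 72.7% with TRBV31 and 52.9% with others. PBS1 went the other way, with 1 of 2 TRBV31 joins and 43 of 62 others. TRBV31 was thus higher in 5 of 6 libraries, and 6.67% of the 15 genes were higher in 6 of 6. TRBV31 was the fifth of the 15 genes by mean log2 odds ratio, at 0.42 ± 0.80 (exact sign-flip permutation p = 0.25, adjusted over the 15 genes 0.469), which did not pass. TRBV29 ranked last at -1.54 ± 0.70. D calls rest on a few letters beside the V and J ends, which differ between V genes, and the part of that in these values was not tested. This measure was added after values were seen.

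CDR3 loops of TRBV31 averaged 14.1 amino acids in CTX, 13.3 in CTX2, 13.7 in Combined, 13.7 in CSF1R, 13.0 in PBS2 and 13.6 in PBS1. For other TRBV genes the library means lay between 13.7 and 13.9. The TRBV31 mean was the lower of the pair in 5 of 6 libraries, where 13.3% of the 15 genes were lower in 6 of 6. The mean difference was -0.222 ± 0.362 amino acids (SD, n = 6; exact sign-flip permutation p = 0.21875, adjusted p = 0.425), and did not pass. TRBV31 had the fourth shortest mean, 13.6 ± 0.371, where TRBV1 had the shortest, 12.1 ± 0.231. Lengths of 14 amino acids were the most frequent, in 234 TRBV31 rearrangements (29.1%) and 27.2% of others.

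Read as bases, TRBV31 kept 12.0 ± 0.430 V letters and 19.0 ± 0.713 J letters, with 9.70 ± 0.641 letters between (means of library means, SD, n = 6). The 14 other tested TRBV genes kept 12.9 ± 0.124 V letters and 18.4 ± 0.163 J letters, with 9.99 ± 0.175 between. Each gene was read against the consensus of its own contigs, which need not be equally long, so kept V letters do not measure trimming alone. The between letters hold the D segment and added bases, with any V or J letters beyond a consensus or past a first mismatch. They numbered 8.95 ± 1.16 in TRBV31 joins to TRBJ1 and 10.2 ± 1.41 in joins to TRBJ2. Within libraries TRBJ1 joins had fewer in 5 of 6, with a mean difference of -1.28 ± 2.21 letters (exact sign-flip permutation p = 0.1875, unadjusted). PBS1, with 2 TRBJ1 and 3 TRBJ2 joins, went the other way, and without it the difference was -2.13 ± 0.782 (exact p = 0.0625, the smallest that 5 libraries allow). The other tested TRBV genes, pooled, had fewer letters between with TRBJ1 in 6 of 6 libraries, by -1.21 ± 0.570. This comparison was added after values were seen.

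Nonproductive TRBV31 rearrangements depended on how the table's productive field was read. That field takes True, False or None, and None almost always goes with no CDR3. Counting False and None, TRBV31 made up 11.3% of distinct nonproductive rearrangements in CTX (8 of 71) and 7.94% in CTX2 (5 of 63). In Combined it made up 6.34% (54 of 852). It made up 4.96% in CSF1R (7 of 141), 5.26% in PBS2 (4 of 76) and 12.0% in PBS1 (3 of 25). The mean was 7.96% ± 3.04 (SD, n = 6).

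Set against productive rearrangements, the log2 odds ratio of nonproductive, TRBV31 over other TRBV, was 1.29 in CTX, 0.53 in CTX2, -0.43 in Combined and -0.50 in CSF1R. It was 0.00338 in PBS2 and 1.95 in PBS1. The value was above 0 in 4 of 6 libraries, in PBS2 only through the 0.5 added to each count. Of the 15 genes, 0% were above 0 in 6 of 6. TRBV17 was above 0 in 5 of 6, and TRBV16, TRBV29, TRBV3 and TRBV4 in 4 of 6. The mean of TRBV31 was 0.47 ± 0.98 (exact sign-flip permutation p = 0.28125, adjusted p = 0.469). It was 0.05 in the 2 JR libraries and 0.69 in the other 4.

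With productive False alone the log2 odds ratios were 2.16 in CTX, 1.40 in CTX2, 0.25 in Combined, 0.89 in CSF1R, 0.55 in PBS2 and 2.92 in PBS1. TRBV31 was above the other genes in 6 of 6 libraries, as were 20% of the 15 genes. The mean of 1.36 ± 1.02 gave p = 0.03125 by exact sign-flip permutation, the lowest value 6 libraries allow, but the adjusted p was 0.164, which did not pass. The counts behind it were 5 in CTX, 2 in CTX2, 25 in Combined, 5 in CSF1R, 1 in PBS2 and 3 in PBS1. Both of CTX2 came from 1 expanded clone, described below.

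What moved between the definitions was how often a nonproductive rearrangement had a CDR3 called. This held for 41 of 81 TRBV31 rearrangements (50.6%, exact 95% interval 39.3% to 61.9%) and for 333 of 1147 of other TRBV genes (29.0%, 26.4% to 31.8%). Among tested genes only TRBV4, with 74 of 123 (60.2%), was higher, and TRBV1 followed with 29 of 61 (47.5%). The TRBV31 share was the higher one in 6 of 6 libraries, as it was for 13.3% of the 15 genes. By library the TRBV31 counts were 5 of 8 (CTX), 2 of 5 (CTX2), 25 of 54 (Combined), 5 of 7 (CSF1R), 1 of 4 (PBS2) and 3 of 3 (PBS1). These counts equal those with productive False alone, so this 6 of 6 is not separate evidence. The 2 of CTX2 came from the same expanded clone. The high-confidence mark was on 42.0% of nonproductive TRBV31 rearrangements and 38.5% of others.

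**Figure D3:**
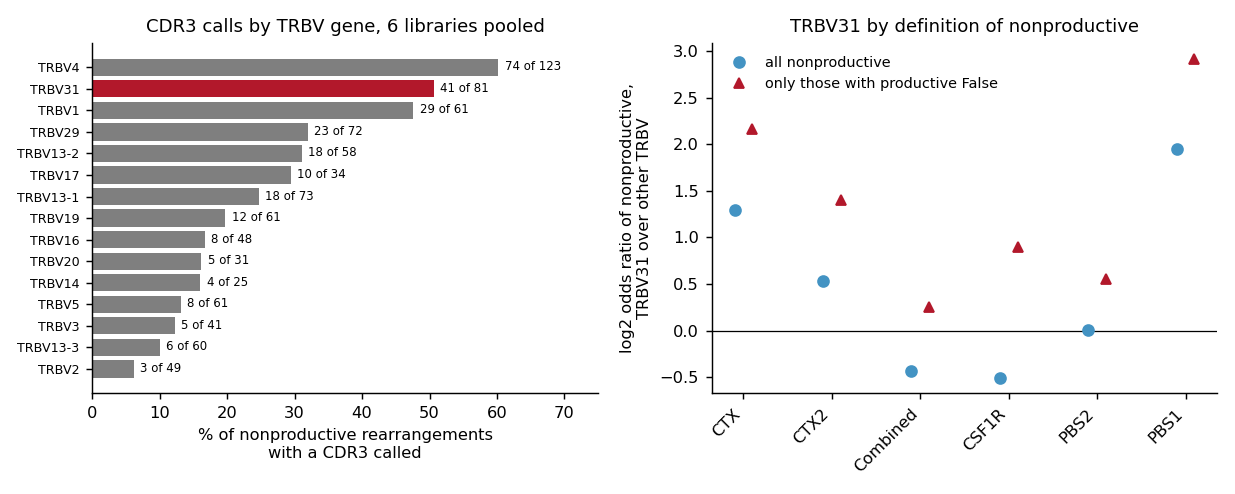
Left, percentage of nonproductive rearrangements with a CDR3 called for each tested TRBV gene, 6 libraries pooled; right, log2 odds ratio of nonproductive against productive, TRBV31 over other TRBV, by library under each definition of nonproductive. TRBV31 is second of 15 genes on the left at 50.6%, and on the right the values with productive False alone (triangles) lie above 0 in each library, from 0.25 in Combined to 2.92 in PBS1.

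The called CDR3s of nonproductive TRBV31 rearrangements began in 3 ways, shown by these examples. In each, capitals mark letters of the V end consensus.
V frame kept, Combined, TRBJ2-5: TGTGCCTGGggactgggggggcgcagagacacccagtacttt
cysteine codon upstream, CTX, TRBJ2-2: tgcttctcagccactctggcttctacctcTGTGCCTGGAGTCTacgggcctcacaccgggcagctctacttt
cysteine codon inside the V end, CTX, TRBJ1-6: TGCCTGGAGTaccggacaggggacttt
TRBV4 clone of CTX2, TRBJ1-4: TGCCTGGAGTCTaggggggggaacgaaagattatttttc

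In 14 the frame of the V gene was kept and the CDR3 began with the usual cysteine. Of these 14, 1 held a stop codon, and why the others were called nonproductive was not tested. In 16 the CDR3 was read from another cysteine codon 29 bases upstream, so the V letters stood in a shifted frame. In 11 it began at letters 3 to 5 of the V end, which spell TGC, as in the CTX2 example. The other 40 had no CDR3 called. Starts other than the gene's own were seen in 27 of 41 TRBV31 CDR3s (65.9%) and in 161 of 223 of the other tested genes (72.2%). A stop codon stood in 3 of the 41 called TRBV31 CDR3s, against 97 of 333 (29.1%) for other TRBV genes. TRBJ1 partners made up 37 of 81 nonproductive TRBV31 rearrangements (45.7%) and 46.5% of those of other genes.

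The 148 nonproductive contigs lay in 148 cells, of which 131 also had a productive TRB contig. In 3 of these the productive chain was itself TRBV31. The productive partners used 14 V genes, led by TRBV13-2 with 10, TRBV19 with 9, TRBV13-1 with 8 and TRBV1 with 7, counted as distinct pairs. By J cluster, nonproductive TRBV31 with TRBJ1 stood beside a productive TRBJ2 join in 25 pairs and beside TRBJ1 in 7. With TRBJ2, it stood beside TRBJ2 in 20 pairs and beside TRBJ1 in 12. Pooled over libraries, 38.7% of productive rearrangements of other TRBV genes used TRBJ1. The pair counts were not tested against these shares.

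One expanded clone carried most of these contigs in CTX2. Its productive chain was TRBV4 with TRBJ2-7 and the CDR3 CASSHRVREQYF, in 117 cells, the largest of the 483 clones of CTX2. A nonproductive TRBV31-TRBJ1-4 contig was found in 70 of those 117 cells (59.8%, exact 95% interval 50.4% to 68.8%). In the other 968 TRB cells of CTX2, 2 had a nonproductive TRBV31 contig (0.207%), 1 of them with TRBJ1-4. Of the 70 contigs, 33 had a CDR3, 32 of them the one printed above, and 37 had none. Their median was 2 UMIs against 24 for the productive chain of the clone. The 70 contigs had 57 different lengths, and by the counting rule the 72 such contigs of CTX2 came to 5 rearrangements. Contigs of this clone entered that count more than once, because those with the printed CDR3, another CDR3 or none were counted apart. Both CTX2 rearrangements with a CDR3 called came from this clone, so the CTX2 value with productive False alone rests on it. Whether its contigs are 1 rearrangement was not tested.

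TRBV31 cells formed few expanded clones. The 753 cells fell into 743 clones, of which 736 were of 1 cell, 5 of 2 cells, 1 of 3 and 1 of 4. Clones of 2 or more cells were 0 of 20 (CTX), 4 of 30 (CTX2), 1 of 605 (Combined), 1 of 61 (CSF1R), 1 of 22 (PBS2) and 0 of 5 (PBS1). For other TRBV genes they were 38 of 363 (CTX), 52 of 453 (CTX2), 46 of 6524 (Combined), 12 of 784 (CSF1R), 14 of 354 (PBS2) and 13 of 128 (PBS1). TRBV31 was lower in 3 of 6 libraries and higher in 3, beside 0% of the 15 genes lower in 6 of 6. The mean difference was -3.10 ± 5.64 percentage points (exact sign-flip permutation p = 0.4375, adjusted p = 0.589). It was 0.657 points in the 2 JR libraries and -4.98 in the other 4. A count of 0 allows up to 3 clones, so the 20 TRBV31 clones of CTX and the 5 of PBS1 set no close limit.

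The largest TRBV31 clone, 4 cells of CTX2, had the CDR3 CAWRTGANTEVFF with TRBJ1-1. In 3 of its 4 cells the alpha chain was TRAV9D-1 with TRAJ13 and CDR3 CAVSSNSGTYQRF. The leading TRBV31 clones of Combined, CSF1R and PBS2 had 2 cells each, and both PBS2 cells shared 1 alpha chain, TRAV12D-2 with TRAJ31. In Combined and CSF1R the alpha chain of the leading TRBV31 clone was found in 1 of its 2 cells. CTX and PBS1 had TRBV31 clones of 1 cell only.

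Sharing of TRBV31 CDR3s between libraries was rare. Of 796 distinct TRBV31 amino acid CDR3s, 3 were in 2 libraries (0.377%) and 0 in 3, against 77 of 9212 (0.836%) in 2 or more libraries for other TRBV genes. The 3 were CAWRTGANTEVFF in CTX and CTX2, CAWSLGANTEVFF in CTX and Combined, and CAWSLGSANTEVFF in Combined and CSF1R. Each used TRBJ1-1 and was encoded by 2 different nucleotide sequences. They were named after their values were seen.

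A further TRB contig, productive or not, was seen in 15.0% of TRBV31 cells in CTX (3 of 20), 2.70% in CTX2 (1 of 37) and 22.3% in Combined (135 of 606). It was seen in 9.68% in CSF1R (6 of 62), 13.0% in PBS2 (3 of 23) and 0 of 5 cells in PBS1 (exact 95% interval up to 52.2%). Cells of other TRBV genes had one in 33.2% in CTX, 26.0% in CTX2, 19.6% in Combined, 23.5% in CSF1R, 35.5% in PBS2 and 26.2% in PBS1. TRBV31 was lower in 5 of 6 libraries and higher in Combined, the library with most TRBV31 cells. TRBV14, TRBV19, TRBV2 and TRBV29 were also lower in 5 of 6, and 6.67% of the 15 genes were lower in 6 of 6.

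The mean difference was -16.9 ± 10.5 percentage points (exact sign-flip permutation p = 0.0625, adjusted p = 0.243), and did not pass. Pooled over cells, where Combined dominates, the shares were 148 of 753 TRBV31 cells (19.7%) and 2114 of 9542 others (22.2%). With high-confidence contigs alone the mean difference was -4.86 points, and with contigs of at least 2 UMIs -10.7. The further contigs had a median of 1 UMI in CTX, CSF1R and PBS2 and 2 in Combined, and the single one of CTX2 had 15. In CTX2 the nonproductive contig of the TRBV4 clone described above was among those of the other cells. With clones of 1 cell alone, CTX2 gave 3.85% for TRBV31 and 12.7% for other TRBV genes, and the mean difference over libraries was -14.3 points.

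The further contigs in TRBV31 cells were productive in 71 cells (9.43%, against 11.5% of other cells) and nonproductive in 82 (10.9%, against 11.9%), pooled over cells that are mostly of Combined. Averaged over libraries, the difference was -10.6 points for productive further contigs and -7.74 points for nonproductive ones (exact sign-flip permutation p = 0.0625 and 0.09375), and neither passed. They were led by TRBV4 with 19 contigs, 15 of them nonproductive. TRBV1, TRBV13-3, TRBV29 and TRBV5 gave 13 each. Conversely, 63 productive TRBV31 contigs lay in cells whose leading TRB chain was another, and 13 of these rested on 1 UMI.

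**Figure D4:**
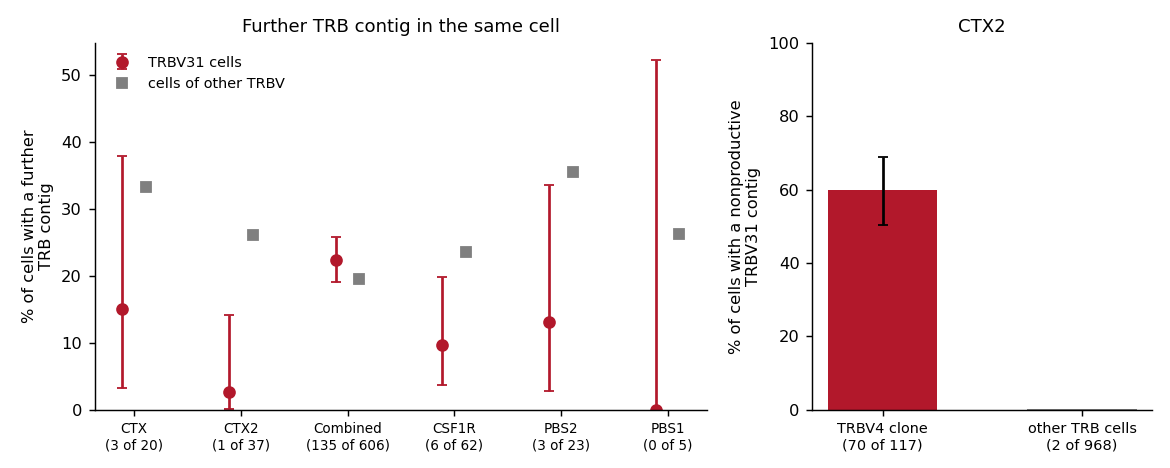
Left, percentage of cells with a further TRB contig for TRBV31 cells (circles, exact 95% binomial intervals, counts below) and cells of other TRBV genes (squares) by library; right, percentage of CTX2 cells with a nonproductive TRBV31 contig in the TRBV4 clone, the largest of that library, and in all other TRB cells. TRBV31 lies below in each library but Combined, and that clone stands at 59.8% (70 of 117) against 2 of 968 cells.

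A productive alpha chain (TRA) was found in 90.0% of TRBV31 cells in CTX, 86.5% in CTX2, 80.2% in Combined, 79.0% in CSF1R, 91.3% in PBS2 and 100% in PBS1. In cells of other TRBV genes the shares were 87.1% in CTX, 90.6% in CTX2, 79.6% in Combined, 81.1% in CSF1R, 87.0% in PBS2 and 89.8% in PBS1. TRBV31 was higher in 4 of 6 libraries, and 0% of the 15 genes were higher in 6 of 6. TRBV13-2, TRBV19, TRBV2 and TRBV20 were higher in 5 of 6, and TRBV3, TRBV4 and TRBV5 in 4 of 6. The mean difference of TRBV31 was 1.94 ± 5.08 points (exact sign-flip permutation p = 0.40625, adjusted p = 0.584). In the 2 JR libraries it was -1.80 points and in the other 4 it was 3.81. Among cells with an alpha chain, 118 of 611 TRBV31 cells (19.3%, exact 95% interval 16.3% to 22.7%) had 2 or more, against 17.3% (16.5% to 18.2%) of others.

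The alpha partners were many. The 601 TRBV31 clones with an alpha chain used 59 TRAV genes. TRAV6-6 was the most frequent by mean share, at 7.87% ± 6.01 of TRBV31 clones and 5.34% ± 1.40 of others. It was followed by TRAV9D-1 (5.99% ± 5.19), TRAV14N-1 (5.56% ± 7.28), TRAV3-3 (4.42% ± 5.08) and TRAV14D-2 (4.20% ± 7.85). Among J genes TRAJ22 led, at 7.80% ± 8.18 of TRBV31 clones and 3.89% ± 1.14 of others, before TRAJ50 (6.94% ± 8.50), TRAJ9 (5.40% ± 7.54), TRAJ53 (5.12% ± 7.75) and TRAJ52 (5.03% ± 6.12). For TRAV6-6 and TRAJ22 the excess over other TRBV genes was smaller than the SD between libraries. These means give the 5 clones of PBS1 the weight of the 485 of Combined. In Combined alone, TRAV9D-1 stood at 6.60% of TRBV31 clones and 4.46% of others, and TRAV6-6 at 6.39% and 5.39%. TRAJ22 stood at 3.71% of TRBV31 clones and 2.31% of others there. Among TRBV31 clones it lay below TRAJ40 (5.57%, others 3.96%), TRAJ49 (5.36%, others 5.08%) and TRAJ53 (5.15%, others 3.79%). These genes were named for high TRBV31 shares, and the differences were not tested.

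The leading TRB contig of TRBV31 cells had a median of 6.48 UMIs in CTX (a geometric midpoint), 11 in CTX2, 11 in Combined, 5 in CSF1R, 6 in PBS2 and 5 in PBS1. Other TRBV genes had medians of 7 in CTX, 16 in CTX2, 10 in Combined, 5 in CSF1R, 7 in PBS2 and 11 in PBS1. TRBV31 was lower in 4 libraries, higher in Combined and equal in CSF1R, beside 6.67% of the 15 genes lower in 6 of 6. TRBV5 was lower in 5 of 6, and TRBV13-2, TRBV19 and TRBV20 in 4 of 6. The mean log2 difference of TRBV31 was -0.31 ± 0.47 (exact sign-flip permutation p = 0.1875, adjusted p = 0.394).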

How the data were processed

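Single-cell T cell receptor libraries of CD45+ mammary tumour cells were analysed, per the labels. The submitters' processing notes name Cell Ranger 3.0.2 and the builds mm10 and GRCm38. The deposited table gives contigs with whole-number counts of reads and UMIs, not normalized, with cell, gene, CDR3 and productive calls, which were taken as deposited. Of its library names, 6 matched a label and 5 did not, and rows of those 5 stayed out. Expression matrices were not analysed here.

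Distinct rearrangements were V gene, J gene and CDR3 nucleotides, once per library. Contigs with no CDR3 were counted once per V gene, J gene and clone of the cell. Each cell took its productive TRB contig with the most UMIs. A clone shared TRBV gene and CDR3 nucleotides within a library. TRBV31 and 14 other TRBV genes, those with at least 3 productive rearrangements in each library, were tested on 7 measures. Differences within libraries were tested by two-sided exact sign-flip permutation over 6 libraries, with Benjamini-Hochberg adjustment over all 105 gene and measure pairs and a threshold of 0.05. The smallest adjusted p over them was 0.21875. Odds ratios had 0.5 added to each count. Intervals for shares are exact Clopper-Pearson at 95%. Possible doublets (at least 2 productive TRB or at least 3 productive TRA contigs in a cell) were kept, and dropped in an alternative. Since the labels do not say that libraries came from separate mice, p-values measure the spread between libraries, which may be technical.

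Genes named were TRBV31, all TRBJ genes, TRBV29, TRBV30, TRBV1, the neighbours in share, the 3 most alike in J profile and the 5 leading TRAV and TRAJ genes. Other names follow counts and were chosen after values were seen. Members and lists were chosen with earlier results of these data known. The scripts were tested on simulated data and ran in Python 3.11.15 with pandas 2.3.3, numpy 2.4.6 and scipy 1.17.1, and figures were drawn with matplotlib 3.10.9.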

Additional observations from a re-analysis of the deposited data

Results flagged for a closer look

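Barcodes that were not called cells, which no comparison above uses, also held TRBV31. They gave 95 productive TRBV31 contigs of 1873 productive TRB contigs (5.07%), above the 3 counts that a count of 0 allows. That limit is passed by any gene in regular use. In called cells the same count was 816 of 11575 (7.05%), and the difference was not tested. Library values of TRBV31 were also checked for a sample far from the rest in 9 groups, of which chance would mark about 1 in 20, and none passed.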

How the results depend on the processing

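Treated and untreated libraries could not be paired, because replicate numbers were given in accession order. Each difference of TRBV31 from other TRBV genes was already taken within a library. Of 101 alternative values, 97 kept their direction. At most 34 of them could reach an unadjusted p below 0.05, and the other 67, with fewer libraries or treated against untreated, could not. The 4 that turned direction were TRBJ1 partners without CTX (-0.0724), and in the JR libraries alone TRBJ1 partners (-0.26), expanded clones (0.657 points) and productive TRA (-1.80 points). The cause was not tested. With 1 library left out, TRBJ1 partners ranged from -0.0724 to 0.23, nonproductive share from 0.18 to 0.67 (both log2 odds ratios), CDR3 length from -0.335 to -0.121 amino acids, expanded clones from -4.09 to -1.63 points, further TRB contigs from -20.8 to -15.0 points, productive TRA from 0.297 to 3.16 points, UMIs from -0.40 to -0.15 (log2) and the treated minus untreated share from 2.58 to 3.70 points. At an unadjusted p below 0.05 by exact sign-flip permutation stood 2 values, TRBJ1 partners with each cell counted once (0.30, adjusted p = 0.205) and nonproductive share with productive False alone (1.36, adjusted p = 0.164). None of the 34 passed after adjustment. Counting contigs without a CDR3 by V gene, J gene and length gave 0.76 for the nonproductive share, and by V gene and J gene 0.63, both chosen after seeing the data, as was the restriction to clones of 1 cell. In PBS1, 5 productive TRBV31 rearrangements limit each value it enters.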
